A study of Mus musculus with 27 samples.

Results

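Seven-transmembrane receptors that steer B cells between compartments were followed at the mRNA level in mouse splenic B cells. The 7 genes Ccr6, Ccr7, Cxcr4, Cxcr5, S1pr1, Gpr183 and Cx3cr1 were taken by gene name from count and FPKM tables of 54532 genes, and all 7 were present and tested in every comparison of experiment 1. B cells of wild-type C57BL6 mice were isolated from spleen by negative selection, which leaves cells untouched by antibody but passes any cell the depletion cocktail misses, and were cultured for 3 h. Experiment 1 had 5 groups of 4 libraries: no stimulus, LPS (a Toll-like receptor ligand, the T-independent stimulus), IL-4+anti-CD40 (the T-dependent stimulus), and each stimulus with 1 µM disulfiram (DSF), an inhibitor of FROUNT. Experiment 2 had 1 library for each of those 5 conditions and 1 for each stimulus with 1 µM ibrutinib, an inhibitor of Bruton's tyrosine kinase. All groups without an inhibitor carried the DMSO vehicle, and the inhibitors were tested only in stimulated cells, so no library shows either compound alone. The labels do not say whether replicates came from separate animals or from wells of 1 cell pool, so the p-values measure the spread between these libraries, which may be technical.

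These receptors couple to heterotrimeric G proteins and read gradients of chemokines or lipids. CXCR5 follows CXCL13 into follicles, CCR7 follows CCL19 and CCL21 to the T cell zone, and GPR183 (EBI2) follows the oxysterol made by CH25H and CYP7B1 to the outer follicle and the T-B border. S1PR1 reads sphingosine-1-phosphate and lets lymphocytes leave lymphoid organs, CXCR4 holds B cells near CXCL12 in bone marrow and the germinal centre dark zone, CCR6 responds to CCL20 at mucosal surfaces and marks memory precursors, and CX3CR1, the fractalkine receptor, is best known on monocytes, macrophages and natural killer cells.

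Upstream sequences from RefSeq (GRCm38.p6) are shown for Cxcr4 and Ccr6, the receptors with the largest rise and the largest fall with DSF under LPS. Each run is the 250 bases before a transcription start, written 5′ to 3′ on the gene's strand, and capitals mark matches to the motifs searched. For Cxcr4 the window is chr1:128592300-128592549 on the minus strand, and for Ccr6 the windows before its separate starts are chr17:8235793-8236042 and chr17:8242276-8242525 on the plus strand.
Cxcr4: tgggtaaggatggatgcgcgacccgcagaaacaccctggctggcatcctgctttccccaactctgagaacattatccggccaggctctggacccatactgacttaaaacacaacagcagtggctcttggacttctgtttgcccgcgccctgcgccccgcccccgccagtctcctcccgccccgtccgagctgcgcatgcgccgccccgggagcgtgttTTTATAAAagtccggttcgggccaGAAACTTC
Ccr6, first start: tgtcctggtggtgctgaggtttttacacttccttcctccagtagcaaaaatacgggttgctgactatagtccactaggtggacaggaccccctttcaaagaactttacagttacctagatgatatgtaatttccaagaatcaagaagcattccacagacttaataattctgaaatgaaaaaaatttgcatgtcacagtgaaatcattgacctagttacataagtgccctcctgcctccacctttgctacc
Ccr6, second start: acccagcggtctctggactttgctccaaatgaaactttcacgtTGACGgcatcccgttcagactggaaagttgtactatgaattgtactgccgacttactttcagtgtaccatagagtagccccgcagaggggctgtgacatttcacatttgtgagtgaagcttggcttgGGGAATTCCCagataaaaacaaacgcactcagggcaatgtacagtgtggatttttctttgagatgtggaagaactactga
Windows were searched on both strands for 12 motifs: the NF-κB motif (GGGA, any 4 bases, CC), GAANNTTC (heat shock factor), TGACNNNGC (NRF2), CCACCC (KLF), GTAAACA (FOXO), TAAACA (short FOXO form), TGACGTCA (CRE), TGACG (short CRE form), TGANTCA (AP-1), the STAT motif (TTC, any 4 bases, GAA), CACGTG for the E-box, and TATAAA for the core promoter. The short forms lie within the long ones, so those pairs are not separate searches. The Cxcr4 window held overlapping TATAAA matches from position -32 to -25 and a heat shock factor match from -8 to -1, counted back from the start. Of 32851 promoter windows of the same length, 12.4% held the core promoter letters and 6.69% the heat shock factor letters. The first Ccr6 start had no match, and the second had the NF-κB motif from -80 to -71 and the short CRE form from -207 to -203, which 17.6% and 17.8% of the windows held. The windows also available were those of Gpr183, with the short FOXO form from -220 to -215 (12% of windows), and Cx3cr1, with the KLF motif from -221 to -216 (28.1%). A match describes letters in a window and was not tested for binding.

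The libraries held 17804851 to 23632992 counts in experiment 1 and 16049295 to 24619776 in experiment 2. Listed B cell markers were detected in every group, with none of the 6 at 0. The 4 unstimulated libraries of experiment 1 formed 2 pairs: replicates 1 and 2 differed by over 2-fold at 0.243% of 11123 genes and replicates 3 and 4 at 0.593%, whereas 10.2% to 10.6% of genes differed across the pairs. The summed level of 6 marginal zone B cell markers was 558 and 538 CPM (counts scaled to library size) in replicates 1 and 2 and 1533 and 1437 CPM in replicates 3 and 4. The B cell marker sum split the same way (5359 and 5305 against 8319 and 8249 CPM), and the sums of neutrophil markers (55.0 and 57.2 against 11.6 and 15.0 CPM) and NK cell markers (13.7 in both against 3.88 and 4.41 CPM) the other way. Of the 6 marginal zone markers, Cr2 had the widest range over the unstimulated libraries (2691 to 22440 counts). Cd1d1, S1pr3 and Cd9 ran from 373 to 1417, 265 to 853 and 534 to 2255 counts. Dtx1 and Mzb1 ran from 4500 to 7062 and 4083 to 5163 counts. Among the receptors, Ccr7, Cxcr4, Cxcr5 and S1pr1 also split by pair. For the receptors, comparisons with unstimulated cells are therefore given below with each pair where it changes a call. Fits by pair are not given for other genes. The IL-4+anti-CD40 libraries were uneven too, with a chi-square statistic per gene of 3.49 to 27.2 between 2 libraries. It was 2.86 to 90.8 in the unstimulated group and at most 10.5 in the other groups. In these bulk libraries fewer cells that carry a receptor and less receptor mRNA per cell cannot be told apart. Levels are given as the deposited FPKM, which correct for gene length, and changes as log2 fold changes (log2FC) from edgeR's quasi-likelihood test, called at a Benjamini-Hochberg adjusted p below 0.05 over all genes tested.

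**Figure D1:**
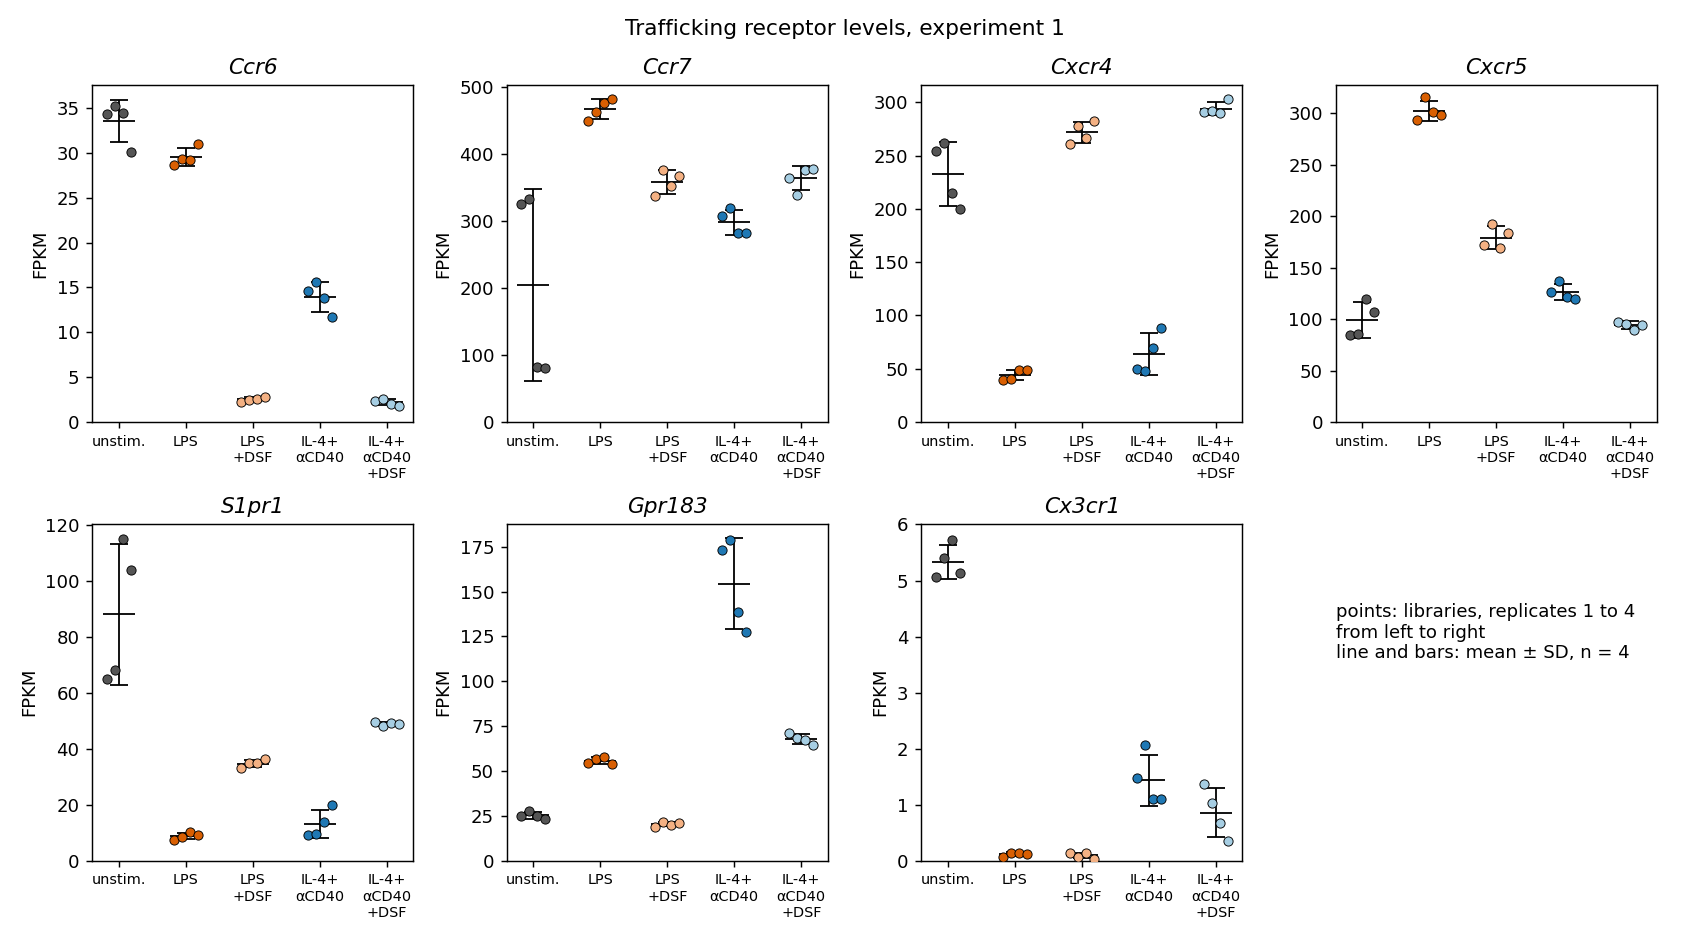
Receptor mRNA levels in experiment 1, as FPKM (vertical axes, from 0) in each of the 5 groups (horizontal axes). Points are the 4 libraries of a group and bars are the mean ± SD. Ccr6 lies below 3 FPKM in all 8 libraries with DSF, Cxcr4 and S1pr1 are low with either stimulus alone, and Ccr7 in unstimulated cells splits into libraries near 330 and near 80 FPKM.

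Ccr6 (ENSMUSG00000040899, chr17:8236043-8257141, plus strand, no overlapping gene in GENCODE vM21) carried the largest fall with DSF among the receptors. In unstimulated replicates 1 to 4 it was measured at 34.4, 35.2, 34.5 and 30.1 FPKM. With LPS it was at 28.7, 29.4, 29.2 and 31.0 FPKM and with IL-4+anti-CD40 at 14.6, 15.6, 13.9 and 11.7 FPKM. With DSF it was at 2.28, 2.48, 2.58 and 2.77 FPKM under LPS and at 2.38, 2.59, 2.00 and 1.83 FPKM under IL-4+anti-CD40. The DSF libraries of both stimuli overlapped each other and lay below every library without DSF. Ccr6 fell 11.5-fold with DSF under LPS (log2FC -3.53, SE 0.07, edgeR adjusted p = 5.0e-23) and 6.44-fold under IL-4+anti-CD40 (log2FC -2.69, SE 0.13, edgeR adjusted p = 5.0e-07). IL-4+anti-CD40 alone lowered it (log2FC -1.24, SE 0.10, edgeR adjusted p = 1.2e-05). The difference with LPS alone was small and its libraries overlapped the unstimulated ones (log2FC -0.17, SE 0.06, edgeR adjusted p = 0.031). That call was lost in 6 of the 8 fits that left out 1 library and against unstimulated replicates 3 and 4 alone (adjusted p = 0.126). With all libraries kept it was also lost in DESeq2 (adjusted p = 0.067), with DESeq2 size factors, with all genes of any count, with all 20 libraries in 1 fit and with a replicate block (adjusted p = 0.074 to 0.097).

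Cxcr4 (ENSMUSG00000045382, chr1:128588199-128592293, minus strand, no overlapping gene) moved the other way. It was at 254, 262, 215 and 199.9 FPKM in unstimulated replicates 1 to 4, at 39.5, 39.8, 48.4 and 48.4 FPKM with LPS, and at 49.4, 47.5, 69.3 and 88.6 FPKM with IL-4+anti-CD40. With DSF it was at 261, 278, 266 and 282 FPKM under LPS and at 290.5, 292, 289.9 and 303 FPKM under IL-4+anti-CD40. The stimulated libraries without DSF lay below all others, and those with DSF lay at 261 FPKM or more, at the top of the unstimulated range or above it. Cxcr4 fell 5.23-fold with LPS (log2FC -2.39, SE 0.11, edgeR adjusted p = 8.8e-07) and 3.60-fold with IL-4+anti-CD40 (log2FC -1.85, SE 0.20, edgeR adjusted p = 6.3e-05). With DSF it rose 6.27-fold over LPS alone (log2FC 2.65, SE 0.06, edgeR adjusted p = 2.1e-22) and 4.54-fold over IL-4+anti-CD40 alone (log2FC 2.18, SE 0.17, edgeR adjusted p = 2.0e-06). Within the IL-4+anti-CD40 group, replicates 3 and 4 stood above replicates 1 and 2. In this group S1pr1 split the same way and Gpr183 the other way.

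S1pr1 (ENSMUSG00000045092, chr3:115710433-115715072, minus strand, no overlapping gene) was highest in unstimulated cells, at 64.9, 68.2, 115 and 104 FPKM in replicates 1 to 4. LPS libraries held 7.45, 8.62, 10.3 and 9.05 FPKM and IL-4+anti-CD40 libraries 9.24, 9.55, 13.7 and 20.03 FPKM. With DSF the level was 33.1, 34.8, 34.8 and 36.1 FPKM under LPS and 49.4, 48.0, 49.3 and 48.8 FPKM under IL-4+anti-CD40. The DSF libraries formed a middle band that overlapped neither the stimulated nor the unstimulated libraries. The fall was 9.87-fold with LPS (log2FC -3.30, SE 0.22, edgeR adjusted p = 5.0e-06) and 6.62-fold with IL-4+anti-CD40 (log2FC -2.73, SE 0.30, edgeR adjusted p = 7.2e-05). The rise with DSF was 3.98-fold under LPS (log2FC 1.99, SE 0.06, edgeR adjusted p = 5.7e-19) and 3.67-fold under IL-4+anti-CD40 (log2FC 1.87, SE 0.20, edgeR adjusted p = 1.4e-05). S1pr1 still stood below unstimulated cells with DSF, by log2FC -1.34 (SE 0.19) under LPS and -0.84 (SE 0.18) under IL-4+anti-CD40.

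Gpr183 (ENSMUSG00000051212, chr14:121952551-121965195, minus strand) lies inside the gene body of Ubac2 on the other strand without sharing an exon. It was at 24.7, 27.6, 25.0 and 23.5 FPKM in unstimulated cells, 54.5, 56.9, 57.9 and 53.6 FPKM with LPS, and 173, 178.9, 139 and 127 FPKM with IL-4+anti-CD40. DSF libraries held 18.8, 21.6, 20.1 and 20.8 FPKM under LPS and 71.3, 68.1, 67.3 and 64.3 FPKM under IL-4+anti-CD40. None of its 5 groups overlapped its neighbour in the order of levels. Gpr183 rose with LPS (log2FC 1.16, SE 0.06, edgeR adjusted p = 1.5e-06) and more with IL-4+anti-CD40 (log2FC 2.64, SE 0.13, edgeR adjusted p = 1.1e-06), and the stimuli differed when tested directly (log2FC -1.42 for LPS against IL-4+anti-CD40, SE 0.09). It fell with DSF under LPS (log2FC -1.44, SE 0.05, edgeR adjusted p = 3.9e-19) and under IL-4+anti-CD40 (log2FC -1.21, SE 0.10, edgeR adjusted p = 2.1e-06).

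Cxcr5 (ENSMUSG00000047880, chr9:44511787-44561877, minus strand) shares exonic sequence with Bcl9l on the other strand, and the strand setting of the counting is not given in the sources used here, so its counts may include reads of that gene. Unstimulated libraries held 84.8, 85.4, 119.9 and 107 FPKM, LPS libraries 293, 316, 301 and 299 FPKM, and IL-4+anti-CD40 libraries 126, 137, 122 and 119 FPKM. With DSF the levels were 172, 192, 169 and 184 FPKM under LPS and 97.6, 95.7, 89.5 and 94.3 FPKM under IL-4+anti-CD40. LPS alone gave the highest level and did not overlap any other group. Cxcr5 rose 3.07-fold with LPS (log2FC 1.62, SE 0.13, edgeR adjusted p = 1.1e-05) and fell with DSF in LPS cells (log2FC -0.73, SE 0.04, edgeR adjusted p = 1.4e-13) and in IL-4+anti-CD40 cells (log2FC -0.44, SE 0.05, edgeR adjusted p = 2.7e-05). The rise with IL-4+anti-CD40 (log2FC 0.36, SE 0.13, edgeR adjusted p = 0.033) was lost in 5 of the 8 fits that left out 1 library and against unstimulated replicates 3 and 4 alone (log2FC 0.18, adjusted p = 0.061), and also with total-count scaling (log2FC 0.22, adjusted p = 0.116) and a replicate block (adjusted p = 0.058). In experiment 2, with 1 library each and no test, Cxcr5 went from 5397 counts unstimulated to 9461 with IL-4+anti-CD40. That log2 ratio was 1.04, or 0.90 with total-count scaling.

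Ccr7 (ENSMUSG00000037944, chr11:99144196-99155077, minus strand, no overlapping gene) was the receptor with the least settled baseline. Unstimulated replicates 1 and 2 held 324 and 333 FPKM and replicates 3 and 4 held 81.6 and 80.0 FPKM. LPS libraries held 448, 463, 475 and 481 FPKM, IL-4+anti-CD40 libraries 308, 319, 281 and 281 FPKM, LPS+DSF libraries 336, 376, 351 and 367 FPKM, and IL-4+anti-CD40+DSF libraries 364, 338, 375 and 377 FPKM. Every LPS library stood above every other library. The rise with LPS over unstimulated cells had a wide error (log2FC 1.22, SE 0.47, edgeR adjusted p = 0.047) and was lost when unstimulated replicate 3 or 4, or any LPS library, was left out, or counts were scaled by library totals (adjusted p = 0.106), but was called against either unstimulated pair alone (log2FC 0.53 and 2.56). With IL-4+anti-CD40 no change was called (log2FC 0.57, SE 0.46, edgeR adjusted p = 0.300), and the value was -0.14 (adjusted p = 0.089) against unstimulated replicates 1 and 2 and 1.90 (adjusted p = 7.8e-08) against replicates 3 and 4. Comparisons that do not use unstimulated cells were tighter. Ccr7 was higher with LPS than with IL-4+anti-CD40 (log2FC 0.70, SE 0.05, edgeR adjusted p = 3.8e-07), fell with DSF under LPS (log2FC -0.37, SE 0.04, edgeR adjusted p = 2.5e-08) and rose with DSF under IL-4+anti-CD40 (log2FC 0.27, SE 0.06, edgeR adjusted p = 0.0019). These calls were lost when all 20 libraries shared 1 estimate of the spread, with adjusted p of 0.106, 0.315 and 0.397, and the rise with DSF also when counts were scaled by library totals (adjusted p = 0.064).

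Cx3cr1 (ENSMUSG00000052336, chr9:119901616-120069879, minus strand) spans 9 other annotated genes and shares exonic sequence with Gm33858. It was the lowest receptor per length, at 5.07, 5.41, 5.73 and 5.13 FPKM in unstimulated cells, 0.073, 0.143, 0.137 and 0.122 FPKM with LPS, and 1.48, 2.06, 1.10 and 1.10 FPKM with IL-4+anti-CD40. The 4 LPS libraries held 7, 15, 12 and 10 counts. With DSF the libraries held 0.133, 0.074, 0.140 and 0.037 FPKM under LPS and 1.37, 1.03, 0.677 and 0.360 FPKM under IL-4+anti-CD40, overlapping those without DSF in both cases. Cx3cr1 fell with LPS (log2FC -5.46, SE 0.17, edgeR adjusted p = 1.0e-07) and less with IL-4+anti-CD40 (log2FC -1.87, SE 0.20, edgeR adjusted p = 6.0e-05). No change with DSF was called under LPS (log2FC -0.31, SE 0.43, edgeR adjusted p = 0.527) or IL-4+anti-CD40 (log2FC -0.77, SE 0.34, edgeR adjusted p = 0.066), and the latter was called in the fit without IL-4+anti-CD40 replicate 4 and in that without IL-4+anti-CD40+DSF replicate 1 (log2FC -0.88 and -1.09, adjusted p = 0.041 and 0.016). It was also called with total-count scaling, with all genes of any count, with all 20 libraries in 1 fit and with a replicate block (log2FC -0.71 to -0.91, adjusted p = 0.0085 to 0.042). The summed level of 7 monocyte and macrophage markers was lower with either stimulus alone than in unstimulated cells, as Cx3cr1 was. It was 551 to 659.9 CPM in unstimulated cells, 149.5 to 171 CPM with LPS and 173 to 199 CPM with IL-4+anti-CD40, and none of the markers was at 0. One of them, Cd14, did not fall with LPS (34 to 810 counts in unstimulated cells and 719 to 851 with LPS). With DSF the sum was 165 to 175 CPM under LPS and, above the range without DSF, 234 to 297 CPM under IL-4+anti-CD40. In experiment 2 the sum was 33.4 CPM in unstimulated cells, 25.5 CPM with LPS and 30.5 CPM with IL-4+anti-CD40, and Cx3cr1 had 10 counts in unstimulated cells, 1 in LPS cells and 2 in IL-4+anti-CD40 cells. The part of such cells in the Cx3cr1 values was not tested.

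Against unstimulated cells, LPS raised 3 of the 7 receptors (Ccr7, Cxcr5, Gpr183) and lowered 4 (Ccr6, Cxcr4, S1pr1, Cx3cr1), where 29.6% of all 14477 genes tested were called higher and 33.3% lower. In 6 of the 7 the groups did not overlap, against 60.9% of all genes. The other stimulus raised 2 (Cxcr5, Gpr183) and lowered 4 (Ccr6, Cxcr4, S1pr1, Cx3cr1), against 30.4% of all genes higher and 32.1% lower, and 5 did not overlap, against 60.1%. Since most genes passed the test, a call says little by itself and the sizes carry the description. The 7 receptors had a median log2FC of -0.17 for LPS and of -1.24 for IL-4+anti-CD40, beside -0.05 and -0.04 over all genes. Tested directly, LPS and IL-4+anti-CD40 differed at 6 of the 7 receptors, 3 in each direction, against 22.3% of all genes called higher and 17.3% lower: Ccr6, Ccr7 and Cxcr5 were higher with LPS (log2FC 1.13, 0.70 and 1.31) and Gpr183, Cx3cr1 and Cxcr4 lower (log2FC -1.42, -3.53 and -0.49). The Cxcr4 call was marginal (edgeR adjusted p = 0.0499) and was lost in 6 of the 8 fits that left out 1 library, in DESeq2 (adjusted p = 0.089) and with at least 10 counts in every library (adjusted p = 0.057). S1pr1 missed the threshold (log2FC -0.52, SE 0.22, edgeR adjusted p = 0.083) and passed it without IL-4+anti-CD40 replicate 1 or replicate 2 (adjusted p = 0.025 and 0.032), with total-count scaling, with all genes of any count and with a replicate block (adjusted p = 0.028, 0.017 and 0.042). In this comparison 5 of the 7 did not overlap, against 39.6% of all genes.

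With DSF under LPS, 2 receptors rose (Cxcr4, S1pr1) and 4 fell (Ccr6, Gpr183, Cxcr5, Ccr7), against 35.1% of 14154 genes called higher and 36% lower, and the groups of these 6 did not overlap, against 64.1% of genes. With DSF under IL-4+anti-CD40, 3 rose (Cxcr4, S1pr1, Ccr7) and 3 fell (Ccr6, Gpr183, Cxcr5), against 30.1% of 14275 genes higher and 31.6% lower, and again 6 did not overlap, against 57.1%. The median log2FC was -0.37 and -0.44, beside 0.00 and -0.02 over all genes. Scaled by library totals, 3473 genes were higher and 6680 lower with DSF under LPS, where TMM gave 4966 and 5096, and 2 receptors rose and 4 fell under each stimulus. Under IL-4+anti-CD40 that scaling ended the call of Ccr7 and added Cx3cr1 to those that fell (log2FC -0.91). The stimulus and the DSF comparisons share the stimulated libraries, so their opposite signs are not independent and are shown side by side only.

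**Figure D2:**
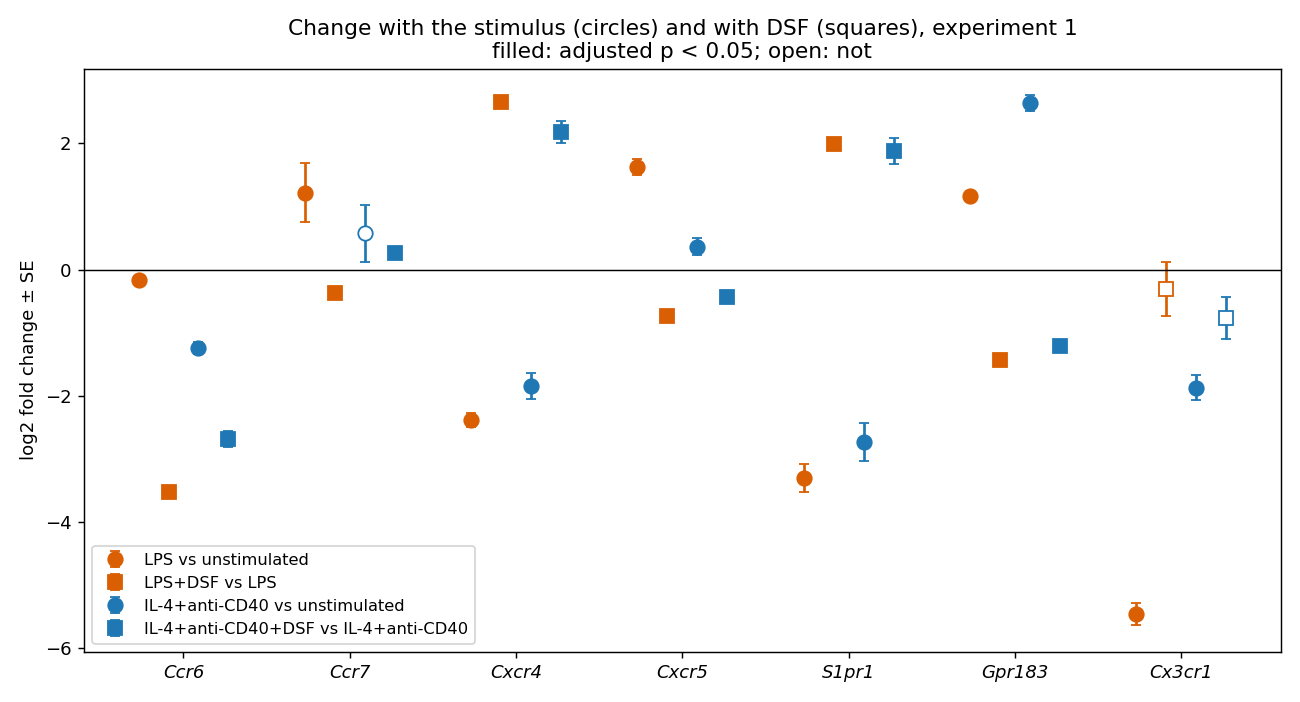
Log2 fold change ± SE (vertical axis) of each receptor (horizontal axis) with a stimulus against no stimulus (circles) and with DSF against the same stimulus alone (squares), n = 4 libraries a group. Filled symbols passed an adjusted p of 0.05. Cxcr4 and S1pr1 lie below 0 with either stimulus and above 0 with DSF, Gpr183 and Cxcr5 the reverse, and Ccr6 below 0 in all 4 comparisons.

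Placed against unstimulated cells, 2 receptors were called higher and 4 lower in LPS+DSF cells (34.3% and 37.3% of all genes), and 2 higher and 3 lower in IL-4+anti-CD40+DSF cells (33.4% and 35.3%). Ccr6 and Cx3cr1 stood farthest below the unstimulated level, with log2FC of -3.72 and -5.80 in LPS+DSF cells and -3.92 and -2.63 in IL-4+anti-CD40+DSF cells. Cxcr4 stood slightly above it in IL-4+anti-CD40+DSF cells (log2FC 0.35, SE 0.09, edgeR adjusted p = 0.0077), a call lost when counts were scaled by library totals (log2FC 0.038). In LPS+DSF cells its call (log2FC 0.23, SE 0.09, edgeR adjusted p = 0.048) was lost in 7 of the 8 fits that left out 1 library, against unstimulated replicates 1 and 2 alone (log2FC 0.049, adjusted p = 0.368), with all genes of any count, with all 20 libraries in 1 fit and with a replicate block (adjusted p = 0.249, 0.150 and 0.075), and the value was -0.18 when counts were scaled by library totals. Gpr183 stood below the unstimulated level in LPS+DSF cells (log2FC -0.31, SE 0.07, edgeR adjusted p = 0.0034) and above it in IL-4+anti-CD40+DSF cells (log2FC 1.44, SE 0.07, edgeR adjusted p = 4.8e-07). Cxcr5 was higher in LPS+DSF cells (log2FC 0.86, SE 0.12), and in IL-4+anti-CD40+DSF cells its value was -0.06 (SE 0.12, edgeR adjusted p = 0.650). That Cxcr5 value was called higher against unstimulated replicates 1 and 2 (log2FC 0.13, adjusted p = 0.033) and lower against replicates 3 and 4 (log2FC -0.26, adjusted p = 0.0014) and with total-count scaling (log2FC -0.37, adjusted p = 0.015). Ccr7 was not called in either, with log2FC of 0.82 and 0.85 and an SE of 0.46 in both. Against unstimulated replicates 3 and 4 it was called higher in both (log2FC 2.14 and 2.17, adjusted p = 4.7e-22 and 5.6e-12), against replicates 1 and 2 in neither (log2FC 0.097 and 0.13, adjusted p = 0.092 and 0.051), and with all 20 libraries in 1 fit in both (adjusted p = 0.024 and 0.022). In experiment 2 the log2 ratios of these comparisons were -0.28 and -0.38 for Cxcr4, -0.06 and -0.30 for Ccr7 and -0.10 and -0.46 for Cxcr5. Cxcr4 and Ccr7 thus had the other sign in both, and Cxcr5 in LPS+DSF cells. Ccr6 (-3.61 and -3.34), S1pr1 (-0.81 and -0.55) and Gpr183 (-0.13 and 0.55) kept their signs. Cx3cr1 had few counts there.

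Whether DSF acted to a different degree under the stimuli was tested as the DSF log2FC under LPS minus that under IL-4+anti-CD40, for which 7.92% of 15130 genes were called higher and 6.96% lower. The 3 receptors called all had a negative difference. For Ccr6 the difference was -0.84 (SE 0.15, edgeR adjusted p = 5.0e-04), for Ccr7 -0.64 (SE 0.07, edgeR adjusted p = 7.6e-06) and for Cxcr5 -0.30 (SE 0.08, edgeR adjusted p = 0.010). With all 20 libraries in 1 fit the Ccr6 call stayed and those of Ccr7 and Cxcr5 were lost (adjusted p = 0.393 and 0.100). For Ccr6 the starting levels differed between the stimuli while the DSF levels overlapped. The other 4 receptors were not called, with differences of 0.46 (SE 0.19) for Cxcr4, 0.11 (SE 0.23) for S1pr1, -0.23 (SE 0.12) for Gpr183 and 0.45 (SE 0.68) for Cx3cr1, which does not show that DSF acted alike. Without IL-4+anti-CD40 replicate 1 or 2, the Cxcr4 difference passed the threshold (0.56 and 0.57, adjusted p = 0.035 and 0.026), as it did with all genes of any count (0.44, adjusted p = 0.0020), and without replicate 4 the S1pr1 value was -0.17.

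Experiment 2, with 1 library a condition, gives values without a test. Of the 6 receptors with enough counts, 5 passed 2-fold from unstimulated to LPS cells and 4 to IL-4+anti-CD40 cells, where 18.5% and 24.4% of all genes did. Intervals of its log2 ratios are 95% intervals for counting error only. Ccr6 had 2632 counts in unstimulated cells, 1734 with LPS alone and 1522 with the other stimulus, and 168 and 169 when DSF was added to each. The DSF log2 ratio was -3.25 (-3.50 to -3.03) under LPS and -2.78 (-3.03 to -2.56) under IL-4+anti-CD40, beside -3.53 and -2.69 in experiment 1. Cxcr4 had 13199 counts unstimulated, 4132 with LPS alone and 2324 in IL-4+anti-CD40 cells, and 8538 and 6658 with DSF. Its DSF log2 ratio was 1.15 under LPS, where experiment 1 gave 2.65, and 1.90 under IL-4+anti-CD40, where it gave 2.18. S1pr1 had 6294 counts unstimulated, 1005 and 828 with the stimuli and 2818 and 2819 with DSF, for log2 ratios of 1.59 and 2.14. Gpr183 had log2 ratios of -1.57 and -2.43 and Cxcr5 of -1.76 and -1.497, the same direction as in experiment 1. Ccr7 differed between the experiments under IL-4+anti-CD40: its log2 ratio with DSF was -0.59 (-0.62 to -0.55) in experiment 2, from 15202 to 7796 counts, and 0.27 in experiment 1. Past 2-fold with DSF were 6 receptors under LPS, where 39.8% of 14275 genes were, and 5 under IL-4+anti-CD40, where 42.2% were. Cx3cr1, at 14 counts or fewer in every library of experiment 2, was below the minimum mean of 10 counts for those tallies.

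Ibrutinib moved fewer genes and fewer receptors. Under LPS only Ccr6 passed 2-fold (5.28% of all genes did), from 1734 to 681 counts and a log2 ratio of -1.73 (-1.87 to -1.61). Under IL-4+anti-CD40 Ccr6 and Cxcr4 passed it (3.92% of genes), with log2 ratios of -1.06 (-1.17 to -0.94) and 1.00 (0.93 to 1.07). Cxcr4 under LPS had a log2 ratio of 0.91, from 4132 to 10192 counts. At the same 1 µM dose and 3 h, Ccr6 was lower and Cxcr4 higher with either inhibitor, and the DSF ratio was farther from 0 for both receptors under both stimuli, except that with total-count scaling Cxcr4 under LPS was at 0.84 with DSF and 0.90 with ibrutinib. S1pr1 had ibrutinib ratios of 0.12 (0.01 to 0.24) under LPS and -0.60 (-0.74 to -0.46) under IL-4+anti-CD40, beside 1.59 and 2.14 with DSF. Gpr183 was at -0.22 and -0.13, Cxcr5 at -0.20 and -0.36 and Ccr7 at 0.21 and 0.32 with ibrutinib. Without replicates these differences have no test against the spread between cultures, and all ratios share the same stimulated libraries.

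**Figure D3:**
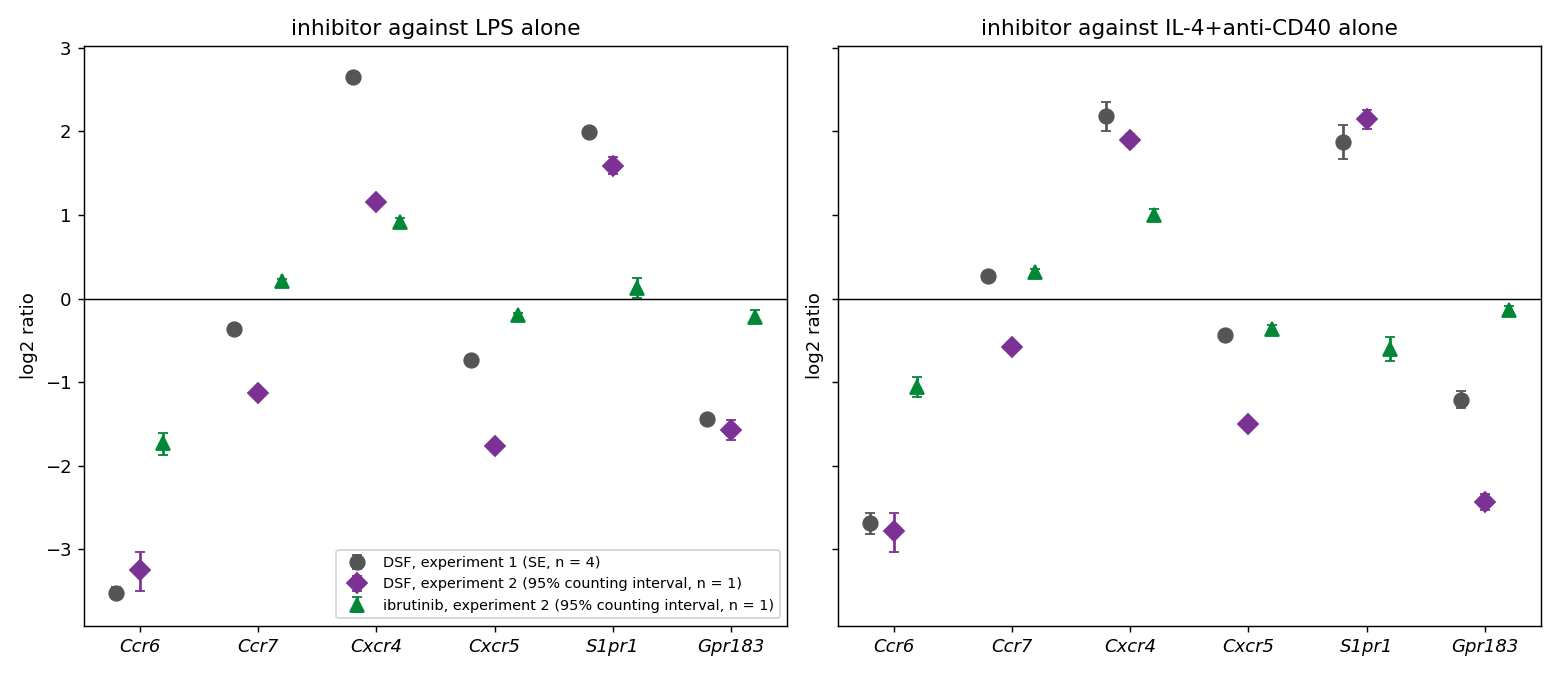
Log2 ratio of each receptor (horizontal axis) with an inhibitor against the stimulus alone (vertical axis), for LPS on the left and IL-4+anti-CD40 on the right. Grey circles are DSF in experiment 1 with the SE of 4 libraries a group, and diamonds and triangles are DSF and ibrutinib in experiment 2 with 95% counting intervals of 1 library each. Cx3cr1 is left out for its low counts. S1pr1 and Gpr183 lie beyond 1 on either side of 0 with DSF and within 0.60 of 0 with ibrutinib, and Ccr7 under IL-4+anti-CD40 has opposite signs for DSF in the 2 experiments.

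Genes that act with these receptors were read from 4 lists. Of 16 ligand and ligand-making genes, 7 were tested in experiment 1. The B cell libraries held 0 counts of Ccl20, the CCR6 ligand, in all 5 groups, at most 1 of Cxcl13 and at most 12 of Ch25h, 10 of Cyp7b1 and 1 of Hsd3b7, the oxysterol enzymes. LPS raised 1 of the 7 and lowered 3, and the T-dependent stimulus raised 2 and lowered 2, where the shares over all genes were 29.6% raised and 33.3% lowered by LPS, and 30.4% raised and 32.1% lowered by the T-dependent stimulus. With DSF 4 of the 7 rose and 2 fell under LPS (median log2FC 0.33), and 3 rose and 2 fell under IL-4+anti-CD40 (median -0.05). Of all genes, 35.1% rose and 36% fell with DSF under LPS, and 30.1% rose and 31.6% fell under IL-4+anti-CD40. Sgpl1, the lyase that degrades sphingosine-1-phosphate, rose with DSF (log2FC 1.68, SE 0.04, and 1.33, SE 0.14), as did Sphk1, a kinase that makes it (log2FC 3.86, SE 0.23, and 1.55, SE 0.38). Sphk1 started from 3 to 16 counts with LPS, and unstimulated libraries held 0, 1, 79 and 90 counts. Spns2, a sphingosine-1-phosphate exporter, fell with both stimuli (log2FC -3.09 and -4.37).

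Of 28 other chemoattractant receptors, 21 were tested against unstimulated cells. LPS raised 2 and lowered 12, and the other stimulus raised 3 and lowered 12. The median log2FC was -1.13 and -1.502, beside -0.05 and -0.04 over all genes. Of all genes LPS raised 29.6% and lowered 33.3%, and the other stimulus raised 30.4% and lowered 32.1%. DSF raised 5 and lowered 7 of 14 under LPS and raised 3 and lowered 7 of 16 under IL-4+anti-CD40, with medians of -0.44 and -0.30. Of all genes DSF raised 35.1% and lowered 36% under LPS, and raised 30.1% and lowered 31.6% under IL-4+anti-CD40. S1pr4, a lymphocyte sphingosine-1-phosphate receptor, had values of the same sign as S1pr1 in these 4 comparisons of experiment 1: -3.05 and -2.76 with the stimuli and 1.18 and 1.66 with DSF, all called. With ibrutinib under IL-4+anti-CD40 in experiment 2 the signs differed, at 0.93 for S1pr4 and -0.60 for S1pr1. S1pr2, which confines B cells to follicles, fell with the stimuli (log2FC -1.13 and -1.16) and rose with DSF under IL-4+anti-CD40 (log2FC 0.54, SE 0.20). In experiment 2 the S1pr2 log2 ratio with LPS was -0.22. S1pr3, a marginal zone B cell gene, had opposite signs between the stimuli in both comparisons, with -1.76 and 1.64 against unstimulated cells and 1.12 and -0.70 with DSF, and its DSF effect differed between the stimuli (difference 1.82, SE 0.15, edgeR adjusted p = 8.9e-08). S1pr3 is also in the marginal zone list, and the unstimulated pairs held 265 and 275 counts against 853 and 644. In experiment 2 its log2 ratio with LPS was 0.042, and its other 3 values kept their sign.

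Ccr2, a monocyte receptor that binds FROUNT, fell with LPS (log2FC -3.93, SE 0.28) and IL-4+anti-CD40 (log2FC -2.44, SE 0.34). It fell with DSF under IL-4+anti-CD40 (log2FC -1.08, SE 0.28) and was not called under LPS (log2FC -0.48, SE 0.25). The IL-4+anti-CD40 libraries were uneven for Ccr2, at 7.84, 8.10, 4.83 and 3.35 CPM in replicates 1 to 4. They overlapped those with DSF, at 3.63, 3.43, 2.14 and 2.77 CPM. In experiment 2 Ccr2 was higher with DSF, at 55 counts against 2 under LPS and 17 against 4 under IL-4+anti-CD40. The monocyte and macrophage marker sum, given above, was lower with the stimuli, as Ccr2 was, but higher with DSF under IL-4+anti-CD40, where Ccr2 fell, and in experiment 2 it was 77.3 and 73.6 CPM with DSF. The part of such cells in the Ccr2 values was not tested. Nup85, which encodes FROUNT, rose with the stimuli (log2FC 0.59 and 0.95) and fell with DSF (log2FC -0.92, SE 0.05, and -1.06, SE 0.08). Ccr9, the gut-homing receptor, rose with DSF under both stimuli (log2FC 1.74 and 1.48). Cxcr3 fell with both stimuli (log2FC -2.33 and -2.15), to 7 to 15 counts with LPS. In experiment 2 its log2 ratio with LPS was -0.24, from 41 to 29 counts. Among receptors for other lipid cues, Gpr18, Gpr174 and P2ry10 fell with DSF (log2FC -1.02, -1.48 and -1.40 under LPS, and -0.44, -0.24 and -0.58 under IL-4+anti-CD40, where experiment 2 gave 0.012 for Gpr174), and Gpr132 rose under LPS (log2FC 0.39) with -0.06, not called, under IL-4+anti-CD40.

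Of 31 signalling genes, 29 were found and tested. LPS raised 3 and lowered 18, the T-dependent stimulus raised 5 and lowered 17, and the median log2FC was -0.75 and -0.95, beside -0.05 and -0.04 over all genes. LPS raised 29.6% and lowered 33.3% of all genes, and the T-dependent stimulus raised 30.4% and lowered 32.1%. DSF raised 15 and lowered 11 under LPS and raised 13 and lowered 9 under IL-4+anti-CD40, with medians of 0.26 and 0.14 beside 0.00 and -0.02 over all genes, of which 35.1% and 30.1% were higher and 36% and 31.6% lower. Rgs2, a brake on G protein signalling, fell with the stimuli (log2FC -2.57 and -2.96) and rose with DSF (log2FC 0.83 and 1.00). Rgs1, which dampens chemokine receptor responses in B cells, was not called with the stimuli (log2FC 0.81 and -0.22) and rose with DSF (log2FC 0.88 and 1.38). Its unstimulated libraries split by pair, at 17.9 and 19.0 CPM in replicates 1 and 2 and 3.84 and 3.91 CPM in replicates 3 and 4. LPS libraries held 17.3 to 21.3 CPM, overlapping the first pair and above the second. IL-4+anti-CD40 libraries held 6.85 to 13.4 CPM, between the pairs. Rgs16, at 5 to 53 counts, rose with DSF under LPS (log2FC 1.36, SE 0.37) and was at -0.10 (SE 0.32), not called, under IL-4+anti-CD40, and the difference missed the threshold (edgeR adjusted p = 0.058). In experiment 2 its log2 ratio under LPS was -0.099. The receptor kinase gene Grk2 fell with both stimuli and further with DSF (log2FC -0.42 and -0.24), whereas Grk5 rose with DSF (log2FC 0.82 and 0.63). Arrb1, a receptor-desensitising arrestin, fell with the stimuli (log2FC -2.12 and -1.96) and was not called with DSF (log2FC -0.13 and -0.19). In experiment 2 Arrb1 was at 7.14 CPM with IL-4+anti-CD40 and 17.4 CPM with DSF added. Under LPS it was at 14.7 CPM without DSF and 19.1 CPM with it. Gna13, the G protein subunit of confinement receptors, rose with DSF (log2FC 0.79 and 0.51). Gnai2, the subunit that most chemokine receptors use, rose under IL-4+anti-CD40 (log2FC 0.38), with 0.04, not called, under LPS. Dock2, a Rac activator needed for lymphocyte migration, fell slightly (log2FC -0.17 and -0.16).

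Of 14 regulators and adhesion genes, all were tested. LPS raised 5 and lowered 6, and the T-dependent stimulus raised 5 and lowered 8. DSF raised 5 and lowered 6 under LPS and raised 4 and lowered 7 under IL-4+anti-CD40. The medians were 0.04, -0.42, 0.00 and -0.10, beside -0.05, -0.04, 0.00 and -0.02 over all genes. Of all genes LPS raised 29.6% and lowered 33.3%, and the T-dependent stimulus raised 30.4% and lowered 32.1%. DSF raised 35.1% and lowered 36% of all genes under LPS, and raised 30.1% and lowered 31.6% under IL-4+anti-CD40. Klf2, whose product activates S1pr1 transcription, fell with LPS (log2FC -2.73, SE 0.30) and IL-4+anti-CD40 (log2FC -2.50, SE 0.30). Unstimulated replicates 1 and 2 held 104 and 111 FPKM of Klf2 and replicates 3 and 4 held 249 and 224 FPKM, so the size of these falls depends on the pair. With DSF, Klf2 was at 24.7, 25.1, 25.9 and 27.7 FPKM with LPS alone and 23.4, 28.0, 24.6 and 26.5 FPKM with LPS+DSF (log2FC 0.01, SE 0.06), and it fell under IL-4+anti-CD40 (log2FC -0.22, SE 0.05). In experiment 2 Klf2 was higher with DSF, with log2 ratios of 0.57 under both stimuli. Cd69, whose product removes S1PR1 from the cell surface, rose with LPS (log2FC 4.30, SE 0.17) and IL-4+anti-CD40 (log2FC 3.06, SE 0.16) and was not called with DSF (log2FC -0.01, SE 0.04, and 0.19, SE 0.08). Experiment 2 gave other values for Cd69 with DSF, with log2 ratios of -1.22 under LPS and -2.27 under IL-4+anti-CD40. Foxo1, a regulator of Ccr7, fell with the stimuli (log2FC -1.21 and -0.59) and rose with DSF (log2FC 0.51 and 0.21), and Foxp1 fell with DSF under LPS (log2FC -0.19). Of the integrins, Itgb7 rose with DSF (log2FC 0.62 and 1.43) and Itga4, its partner, fell (log2FC -0.93 and -0.90). Icam1 rose with the stimuli (log2FC 3.11 and 2.74) and with DSF had opposite signs, 0.52 under LPS and -0.33 under IL-4+anti-CD40, both called. In experiment 2 its log2 ratio with DSF was -0.65 under LPS and -1.49 under IL-4+anti-CD40.

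**Figure D4:**
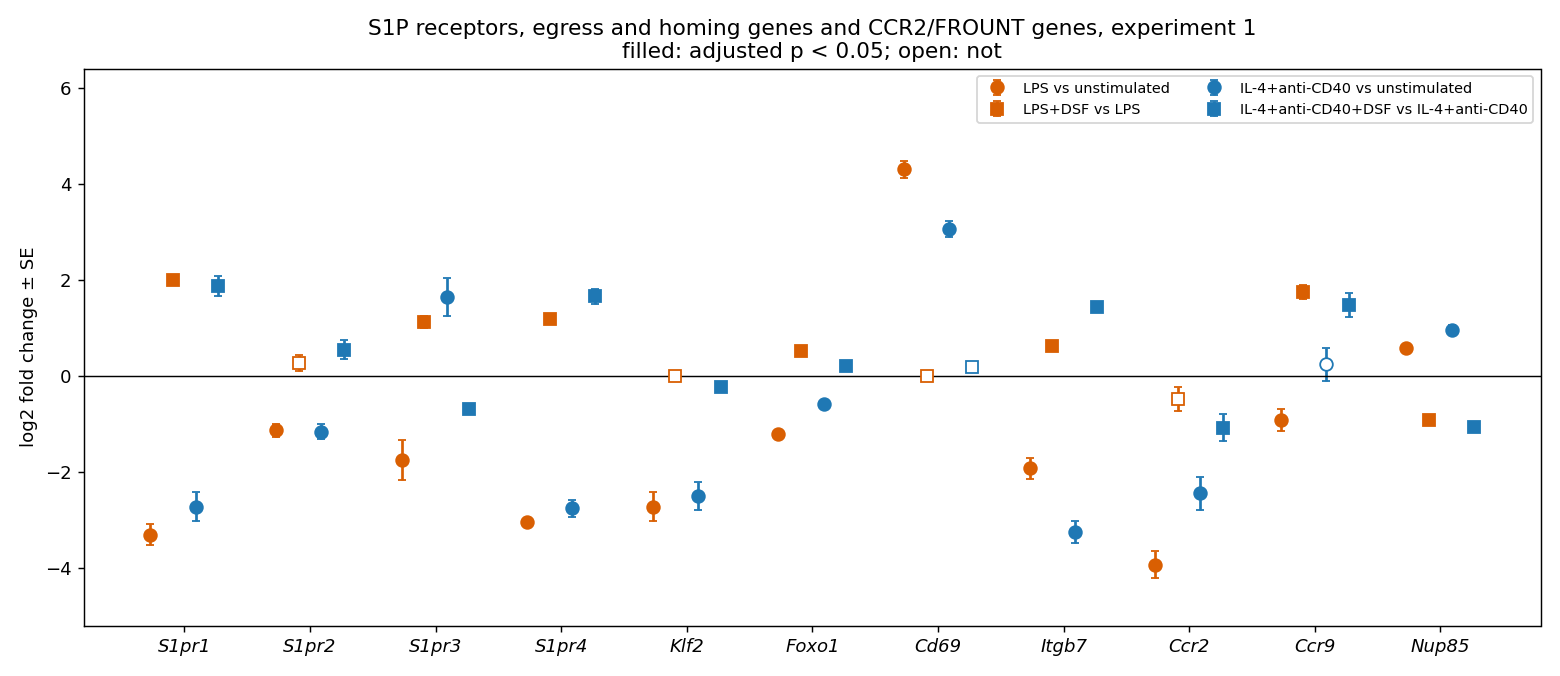
Log2 fold change ± SE (vertical axis) of sphingosine-1-phosphate receptors, egress and homing genes, and the CCR2 and FROUNT (Nup85) genes (horizontal axis) in experiment 1, with a stimulus (circles) and with DSF (squares), n = 4 libraries a group. Filled symbols passed an adjusted p of 0.05. S1pr1 and S1pr4 lie below 0 with the stimuli and above 0 with DSF, and Klf2 and Cd69 lie within 0.22 of 0 with DSF.

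The genes most alike to each receptor were found by Pearson's correlation of log2 CPM over the 20 libraries of experiment 1 among 11122 candidate genes, as a description. The points share 5 groups, so a high value mostly restates the order of the groups. Cxcr4 was most like Snx20 and Zdhhc20 (r = 0.990 for both), S1pr1 like Trib2 (0.983), and Ccr6 like Adal (0.980) and Pskh1 (0.979). Gpr183 was most like Net1 (0.978) and Acat2 (0.975), Cxcr5 like Mrpl30 (0.974) and Gypc (0.967), Ccr7 like Tnip3 (0.974) and Crem (0.970), and Cx3cr1 like Ppp3r1 (0.967) and Grap2 (0.965). Over the 7 libraries of experiment 2 the same pairs gave 0.921 for S1pr1 and Trib2, 0.925 for Gpr183 and Net1 and 0.931 for Cxcr5 and Gypc, but -0.746 for Ccr7 and Crem and 0.026 for Cx3cr1 and Ppp3r1. Among the receptors themselves the closest pair was Cxcr4 and S1pr1 (r = 0.897 over 20 libraries), and neither was among the other's 2 most alike genes.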

How the data were processed

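RNA was poly(A)-selected from splenic B cells and sequenced by a service provider. Per the submitters' processing notes, reads were aligned to mm10 with HISAT2 2.0.5 and counted per gene with featureCounts 1.5.0-p3. The authors deposited raw gene counts and FPKM, which divide counts by exon length and library size, in 1 table of each per experiment. The labels allow directional and non-directional libraries, and the strand setting and annotation release are not given in the sources used here. Positions of the 7 receptors in the tables equalled those in GENCODE vM21. The labels and the study's methods differ on the number of cells per well.

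Counts were tested with edgeR 4.0.16 (R 4.3.3) by glmQLFit and glmQLFTest with TMM factors and filterByExpr, without a replicate block, in fits of the 2 groups compared. The difference of DSF effects was fitted over 16 libraries. P-values were adjusted by Benjamini-Hochberg over all genes tested. Overlap of groups was read from TMM-normalized CPM. On simulated counts for LPS+DSF against LPS (14151 genes), edgeR found 100 of 100 genes planted at log2 1 and 99 of 100 at log2 2, with 10 false calls. The planted genes rose and fell in equal numbers, were a small part of all genes, and had a fixed spread. In the data most genes were called, a setting that the simulation does not test. Experiment 2 has 1 library a condition: log2 ratios used TMM factors and a prior count of 2, tallies took genes averaging 10 counts or more and a 2-fold change, and its 95% intervals are exact for counting error. PCR duplicates cannot be told from separate molecules, so those intervals cover counting error only.

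DESeq2 1.42.0, other scalings and filters, all 20 libraries in 1 fit, a replicate block and the loss of each library were alternatives. The fits against each unstimulated pair were added after seeing the data. The receptors and the gene lists were chosen with earlier results of these data known. Named genes were all 7 receptors, their 2 most alike genes, a fixed set of list genes, and, where used, the called gene with the largest change of a list in a direction. Results of 3 genes that this rule names are not reported here.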

Additional observations from a re-analysis of the deposited data

Results flagged for a closer look

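In 35 sets of 4 libraries (7 receptors in 5 groups), the highest or lowest library was checked for standing apart from the other 3, which chance gives in about 1 of 20 sets. Only Cxcr4 in IL-4+anti-CD40+DSF replicate 4 did, at 303 FPKM, where the other 3 held 289.9 to 292 FPKM. The effect of DSF differed between the stimuli by the interaction test for 3 of the 7 receptors: Ccr6 (difference in log2FC -0.84), Ccr7 (-0.64) and Cxcr5 (-0.30). With all 20 libraries in 1 fit only the Ccr6 call was kept (adjusted p = 3.9e-04), and Ccr7 and Cxcr5 lost theirs (adjusted p = 0.393 and 0.100). For all 3 the DSF log2FC was lower under LPS than under IL-4+anti-CD40, which for Ccr6 and Cxcr5 was a larger fall. Ccr7 had a DSF log2FC of -0.37 under LPS and 0.27 under IL-4+anti-CD40.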

How the results depend on the processing

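Of 947 refitted values of single receptors in experiment 1, 868 kept their direction and their side of the threshold, 53 lost a call, 21 gained one and 5 changed sign. The sign changes were Ccr7 with IL-4+anti-CD40 (-0.14) and Cxcr5 in IL-4+anti-CD40+DSF against unstimulated cells (0.13) when unstimulated replicates 1 and 2 alone were used, the same Cxcr5 value without unstimulated replicate 3 (0.026, in a range from -0.15 over single libraries left out), Cxcr4 in LPS+DSF against unstimulated cells with total counts (-0.18), and the S1pr1 difference of DSF effects without IL-4+anti-CD40 replicate 4 (-0.17, in a range up to 0.24).

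Scaling by total counts moved the median of all genes the most in LPS+DSF against unstimulated cells, from -0.02 to -0.43. It moved the split of higher and lower genes from 4283 and 4818 to 2903 and 6387 with LPS, while IL-4+anti-CD40 went from 4389 higher and 4633 lower genes to 3454 and 5574. It left 1 receptor higher with IL-4+anti-CD40, 1 in LPS+DSF and 1 in IL-4+anti-CD40+DSF against unstimulated cells, and over all genes it gave 4712 lower for LPS against IL-4+anti-CD40, 3151 higher in LPS+DSF and 3117 higher in IL-4+anti-CD40+DSF against unstimulated cells. In experiment 2 total counts left 1 receptor past 2-fold higher for IL-4+anti-CD40 against unstimulated cells and for LPS+DSF against LPS, and 2 lower for LPS+DSF against unstimulated cells, where 1847 genes were higher and 4742 lower, with 4328 lower for IL-4+anti-CD40+DSF. A mean of at least 50 counts left 1.56% and 1.44% of genes past 2-fold with ibrutinib under LPS and IL-4+anti-CD40. With at least 10 counts in every library 1 receptor was lower for LPS against IL-4+anti-CD40, since Cxcr4 lost its call (adjusted p = 0.057) and Cx3cr1 was not tested there or in the other 4 comparisons with an LPS group. With all genes of any count 1 receptor was higher in LPS+DSF against unstimulated cells, as against unstimulated replicates 1 and 2. In that setting 1 receptor had a DSF log2FC called higher under LPS than under IL-4+anti-CD40. With all 20 libraries in 1 fit, 1 receptor (Ccr6) had a lower DSF log2FC under LPS than under IL-4+anti-CD40, which is a larger fall. In that fit 205 genes had a higher DSF log2FC under LPS. The cause was not tested for these.

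Replicate numbers are shared by the groups, and the deviations of same-numbered libraries correlated at -0.06 to 0.33, near 0 for most. The highest values, 0.33 and 0.31, were those of replicates 1 and 4 for DSF under IL-4+anti-CD40. The labels do not say whether the numbers pair the libraries, and these correlations do not settle it. With a replicate block 1 receptor was higher with IL-4+anti-CD40 and 1 in LPS+DSF against unstimulated cells, Cx3cr1 fell with DSF under IL-4+anti-CD40 (log2FC -0.82), and counts of all genes stayed within 1.5 times. Leaving out 1 library gave 1 to 2 receptors higher with IL-4+anti-CD40 and with LPS+DSF against unstimulated cells. It gave 0 to 1 receptors with a DSF log2FC called higher under LPS than under IL-4+anti-CD40. The order of the 5 groups by level was the same in CPM for all 7 receptors. By Spearman's correlation 1 of the 14 most alike genes was named again. At 3 to 15 counts, Cx3cr1 under LPS is too shallow to show a DSF effect.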
